A study of Mus musculus with 6 samples.

Results

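The transcripts of 42 genes that defend cells against oxidants were followed in the pituitary gland of male mice. They are targets and regulators of the transcription factor NRF2 and members of the thioredoxin and glutathione systems. They were chosen by symbol from a list of 43 names. Of these, 42 had a row among the 16736 rows of the count table, all 42 passed the filter on low counts, and 13873 rows were tested in all. No row was named TXN, the gene of cytosolic thioredoxin, which is not analysed here. Rows under another symbol for this gene were not looked for.

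The groups were 3 libraries labelled HFD and 3 labelled RD, each of polyadenylated RNA from the pituitary of male mice fasted for 16 h and then fed for 4 h. The labels name no strain, age or genotype, do not spell out the diet abbreviations, and do not call replicates separate animals, so the tests rest on a spread among libraries that may be technical. The series title concerns obesity and fatty liver. Totals were 14185372 to 14384933 counts in the HFD libraries and 15702214 to 18111345 in the RD libraries. Levels are CPM, read counts scaled to a common library total with edgeR's TMM factors, and changes are log2(HFD/RD) with the standard error (SE) of edgeR's quasi-likelihood test. A gene is said to be called, or to have risen or fallen, where its Benjamini-Hochberg adjusted p over all tested rows was under 0.05. Growth hormone (GH1), prolactin (PRL) and the other hormone markers of the pituitary were present in every library. The summed somatotroph markers stood at 37000 to 40000 CPM in HFD and 59600 to 72400 CPM in RD, the lactotroph markers at 9920 to 12500 CPM in HFD and 14200 to 15800 CPM in RD, and the gonadotroph markers at 1020 to 1110 CPM in HFD and 1350 to 1510 CPM in RD. The thyrotroph markers went the other way, with 297 to 310 CPM in HFD and 105 to 174 CPM in RD. The first sums consist mostly of GH1, PRL and FSHB, and single markers did not all follow them. NR5A1, a gonadotroph marker, was called higher in HFD (log2 change 0.49), while FSHB, LHB and GNRHR were called lower. GHRHR of the somatotroph and DRD2 of the lactotroph markers were not called (log2 changes -0.34 and -0.03). POU1F1, a marker in both of these lists, was called lower (-0.84). The corticotroph and melanotroph markers summed to 5950 to 13900 CPM in HFD and 5690 to 9680 CPM in RD, with CRHR1 called higher. Those of pituicytes and the posterior lobe summed to 90.5 to 205 CPM in HFD and 164 to 268 CPM in RD, with 0 called. The part of these differences in the results below was not tested. In a whole gland, fewer cells of a type and less RNA per cell cannot be told apart.

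NRF2, encoded by NFE2L2, is held in the cytoplasm by KEAP1 and marked there for degradation. Oxidants and electrophiles modify KEAP1, NRF2 then enters the nucleus, pairs with small MAF proteins and activates genes that carry antioxidant response elements, among them those of quinone reductase, glutathione synthesis, thioredoxin reductase and sulfiredoxin. BACH1 is a repressor at the same elements. The control of NRF2 is mainly at the level of the protein, so its activity is usually read from the transcripts of its targets. Thioredoxin and glutathione pass electrons from NADPH to peroxiredoxins, glutathione peroxidases and glutaredoxins, which reduce peroxides and oxidised protein thiols.

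The upstream stretches of 5 members are shown because each holds a motif of NRF2 target genes or, in TXNIP, of glucose-induced genes. They were read from RefSeq windows of 250 bases before to 50 after the start on GRCm38.p6, which hold 35 of the 42 members, and each ends before the RefSeq start. Capitals mark the motif, and all stretches are from the plus strand.
TXNIP, chr3:96557842-96557918: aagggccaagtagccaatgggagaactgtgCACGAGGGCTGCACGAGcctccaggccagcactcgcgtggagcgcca
SRXN1, chr2:152105449-152105517: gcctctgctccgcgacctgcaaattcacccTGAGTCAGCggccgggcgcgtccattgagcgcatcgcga
PRDX1, chr4:116685436-116685504: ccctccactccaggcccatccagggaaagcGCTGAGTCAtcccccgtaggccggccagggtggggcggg
GCLM, chr3:122245393-122245461: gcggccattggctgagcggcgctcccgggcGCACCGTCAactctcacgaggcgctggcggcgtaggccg
TXNRD1, chr10:82859084-82859152: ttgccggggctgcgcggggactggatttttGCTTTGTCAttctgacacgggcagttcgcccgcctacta
The antioxidant response core TGACNNNGC, searched on both strands, lay in 7 of 51 windows of the members (13.7%), against 12.4% of all 32851 windows. The core TGANTCAGC, which NRF2 and AP-1 share, partly overlaps with TGACNNNGC. TGANTCAGC lay in 3 of the 51 windows (5.88%), those of SRXN1, PRDX1 and GSTP1, against 1.19% of all windows. Known NRF2 targets were put on the list by name, so a higher share may come from that choice and is no test. The letters in SRXN1 and GSTP1, TGAGTCAGC, are not a match of TGACNNNGC. The window of NQO1 held neither TGACNNNGC nor TGANTCAGC, which says only that these letters are not in it. The capitals in TXNIP are a pair of CACGAG boxes 5 bases apart, the letters of a carbohydrate response element known from this gene. The pattern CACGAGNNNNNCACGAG was written down after this sequence was read, and it was found in 1 of the 32851 windows, that of TXNIP itself. A match is a description and does not show binding.

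Of the 42 members 5 were called. NQO1, TXNIP, MSRA and SOD3 were higher in HFD, PRDX6 was lower, and 37 were not called. Of these 37, 6 had an unadjusted p under 0.05, and 0 were called by DESeq2, limma-voom or any other fit tried. The 5 called were 11.9% of the members, near the 10.5% called among all tested genes (1453 of 13873). By direction, 9.52% of the members were called higher against 5.87% of all genes, and 2.38% were called lower against 4.61%. The groups did not overlap for 11 members (26.2%), 4 higher and 7 lower in HFD, against 32.5% of all genes, and the unadjusted p was under 0.05 for 26.2% of the members against 26.5% of all genes. The median log2 change of the members was -0.02, beside 0.00 for all tested genes (-0.0023), and the median size of the change was 0.13 against 0.17. The calls of NQO1, TXNIP and PRDX6 held whichever of the 6 libraries was left out, while 3 members were called without HFD replicate 2, HFD replicate 3, RD replicate 2 or RD replicate 3. Of all genes, 490, 431, 890 and 1414 were called in these fits, in that order.

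**Figure D1:**
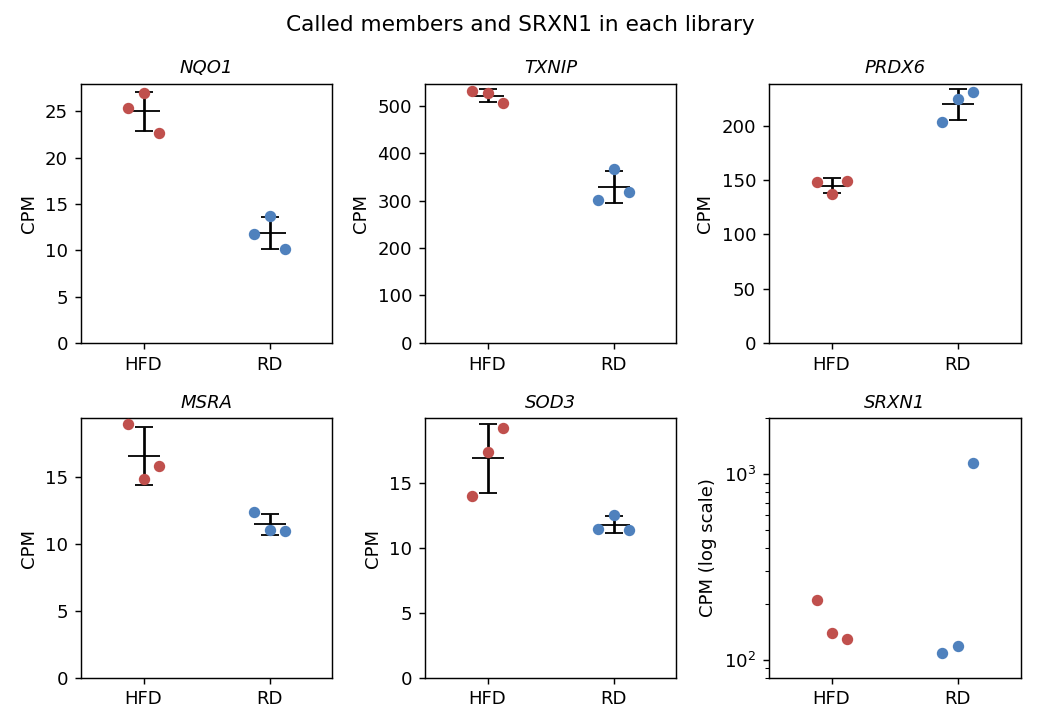
Level in CPM of the called members and of SRXN1 in each of 3 HFD (red) and 3 RD (blue) libraries, with the mean and SD in black (none for SRXN1, whose axis is logarithmic). The groups are apart for the 5 called members, and SRXN1 stands at 1145 CPM in RD replicate 3.

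NQO1 encodes a quinone reductase of the cytosol and is among the most widely used NRF2 targets (chromosome 8 of mm10, 107388225 to 107403206, minus strand). It had 25.3, 27.0 and 22.7 CPM in HFD replicates 1, 2 and 3, against 11.8, 13.7 and 10.2 CPM in RD replicates 1, 2 and 3. All HFD libraries lay above all RD libraries. The change was 2.11-fold, a log2 change of 1.07 ± 0.14 (SE, edgeR adjusted p = 0.0022), the largest rise among the members. With a library left out it ranged from 0.97 to 1.18.

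The heme oxygenases, which open the heme ring and release iron, were not called. HMOX1, the inducible enzyme and another common NRF2 target, had 4.23, 3.94 and 3.92 CPM in HFD and 5.51, 3.97 and 4.91 CPM in RD. The groups overlapped, and the log2 change was -0.25 (95% interval -0.72 to 0.22). HMOX2, the constitutive enzyme, had 44.8, 44.1 and 39.2 CPM in HFD and 47.1, 58.0 and 50.7 CPM in RD. These values did not overlap, but HMOX2 was not called (log2 change -0.28 ± 0.10, edgeR adjusted p = 0.11), and its exons share bases with those of the opposite-strand gene Cdip1.

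Transcripts of the regulators differed little between the groups. NFE2L2 had 87.0, 80.3 and 84.4 CPM in HFD and 80.95, 83.2 and 93.5 CPM in RD. KEAP1 had 93.2, 87.6 and 94.8 CPM in HFD and 94.3, 89.7 and 91.7 CPM in RD. BACH1 had 52.0, 44.6 and 47.3 CPM in HFD and 50.2, 46.6 and 45.4 CPM in RD. For each of them the groups overlapped, and the 95% intervals of the log2 change ran from -0.21 to 0.15 for NFE2L2, from -0.15 to 0.15 for KEAP1 and from -0.18 to 0.21 for BACH1. NFE2L1, a relative of NRF2 that also drives proteasome genes, had 350, 353 and 362 CPM in HFD and 377, 355 and 328 CPM in RD, with the HFD libraries inside the range of the RD libraries. None of the 4 was called. The activity of the proteins cannot be read from these counts.

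**Figure D2:**
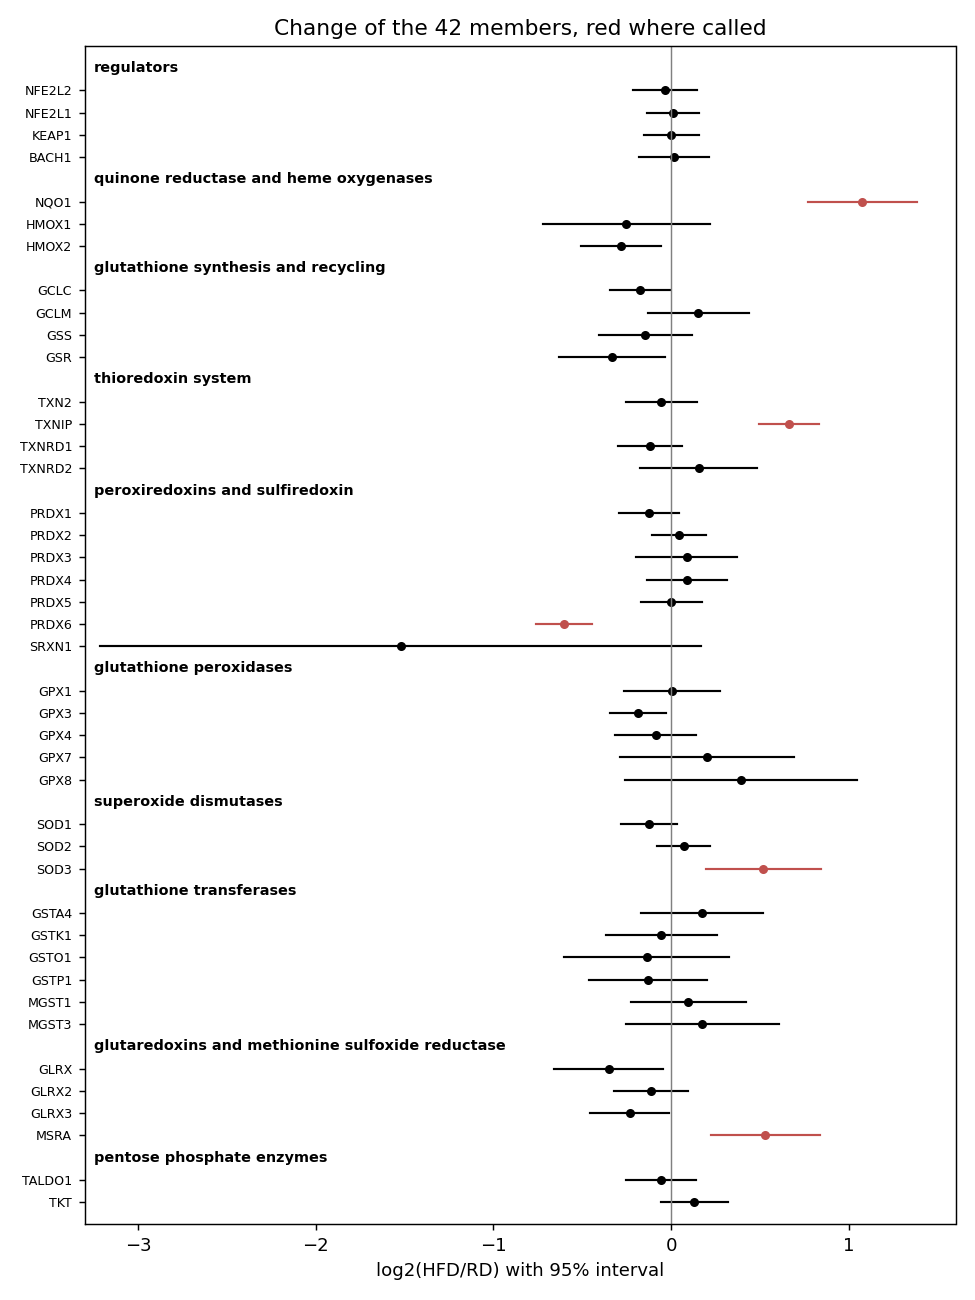
Log2(HFD/RD) of the 42 members with its 95% interval, grouped by role, with called members in red. The regulators lie between -0.03 and 0.02, and SRXN1 has the widest interval, from -3.22 to 0.17.

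Glutathione is made in 2 steps and recycled in 1, and none of the 4 genes of this group was called. GCLC, the catalytic subunit of the rate-limiting ligase, had 73.8, 73.3 and 71.4 CPM in HFD and 76.7, 83.5 and 86.5 CPM in RD. The groups did not overlap, and the log2 change of -0.18 ± 0.08 missed the threshold (edgeR adjusted p = 0.17). GCLM, the modifier subunit, whose upstream stretch holds TGACNNNGC on the minus strand, had 18.1, 22.8 and 18.9 CPM in HFD and 19.5, 16.7 and 17.7 CPM in RD. Its groups overlapped (log2 change 0.15, 95% interval -0.13 to 0.44), and an expressed pseudogene, Gm6061, shares exon bases with it. GSR, which reduces oxidised glutathione, had a log2 change of -0.33 and GSS, the second synthetic enzyme, of -0.15.

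In the thioredoxin system TXNIP rose. It encodes an arrestin-like protein that binds thioredoxin, limits glucose uptake and is known for its induction by glucose (chromosome 3, 96557957 to 96561883, plus strand). TXNIP had 531, 527 and 506 CPM in HFD replicates 1, 2 and 3, against 302, 366 and 319 CPM in RD replicates 1, 2 and 3. Every HFD library was above every RD library. The change was 1.58-fold, a log2 change of 0.66 ± 0.08 (edgeR adjusted p = 0.0015), and it ranged from 0.60 to 0.74 when a library was left out. The antisense gene Gm15441 shares 606 exon bases with TXNIP, and whether counting used strand is not known. Besides HMOX2 and GCLM, other genes also share exon bases with KEAP1 (510 with the antisense gene Gm16754), GSS, PRDX2, PRDX5, TXNRD2 and TKT. Per kilobase of annotated exon, TXNIP had the highest level of all members in HFD, at 167 CPM per kb, followed by GPX3 with 131 and NFE2L1 with 65.3. In RD the order was different, with GPX3 at 149 and TXNIP at 105 CPM per kb, and SRXN1 at 162 through RD replicate 3.

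The reductases that recharge thioredoxin were not called. TXNRD1, the cytosolic selenoenzyme and an NRF2 target with TGACNNNGC in its upstream stretch, had 95.05, 89.2 and 95.2 CPM in HFD and 102, 92.4 and 110 CPM in RD. The groups overlapped, and the log2 change was -0.12 (95% interval -0.30 to 0.06). The mitochondrial pair, TXNRD2 with a log2 change of 0.15 and TXN2 with -0.05, was not called either.

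Peroxiredoxins are abundant thiol peroxidases, and of the 6 measured PRDX6 alone was called. PRDX6 is the 1-cysteine member, which takes its electrons from glutathione and also has phospholipase activity (chromosome 1, 161240112 to 161251219, minus strand). It had 148, 137 and 149 CPM in HFD replicates 1, 2 and 3, against 203, 225 and 230 CPM in RD replicates 1, 2 and 3. All HFD libraries were below all RD libraries. The level fell to 0.66 of that in RD, a log2 change of -0.60 ± 0.07 (edgeR adjusted p = 0.0016), which ranged from -0.66 to -0.56 when a library was left out. The mouse genome also has the related gene Prdx6b and the processed pseudogene Prdx6-ps2, so the assignment of its reads is uncertain.

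The other peroxiredoxin genes were not called, with log2 changes from -0.12 for PRDX1 to 0.09 for PRDX4. PRDX1 is the main cytosolic enzyme, and its upstream stretch holds TGANTCAGC on the minus strand. PRDX1 had 113, 129 and 116 CPM in HFD and 134, 122 and 134 CPM in RD. Its groups overlapped, and the 95% interval of its log2 change was -0.29 to 0.04.

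SRXN1 encodes sulfiredoxin, which repairs over-oxidised peroxiredoxins and is a strong NRF2 target. Its upstream stretch holds TGANTCAGC, the core shared with AP-1. SRXN1 had 209, 139 and 130 CPM in HFD replicates 1, 2 and 3, against 108, 118 and 1145 CPM in RD replicates 1, 2 and 3. The HFD libraries were above RD replicates 1 and 2, and RD replicate 3 was above all. Its deposited count was 19822 in RD replicate 3, against 1769 in RD replicate 1 and 1820 in RD replicate 2, a level 10.1 times the mean of these libraries. With all libraries the log2 change was -1.52 ± 0.76 (edgeR adjusted p = 0.24), and without RD replicate 3 it was 0.48 (adjusted p = 0.094), so the sign of the change rests on 1 value. DESeq2 gave it no adjusted p.

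Other NRF2 targets were not raised to that extent in RD replicate 3. Relative to the mean of RD replicates 1 and 2, that library stood at 0.80 for NQO1, 0.98 for GCLM, 1.13 for TXNRD1, 1.04 for HMOX1, 1.30 for GSR and 1.43 for SLC7A11. Of all genes with a mean of at least 5 CPM, 4 were at least 5 times higher in RD replicate 3 than in every other library, SRXN1, FAM167A, KCNK10 and LIPH, and 0 were so in any other library. The deposited count divided by 10 would be 115 CPM, between the levels of RD replicates 1 and 2. From this table alone, RNA of that library and an error in the entry cannot be told apart, and no direction is given for SRXN1.

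**Figure D3:**
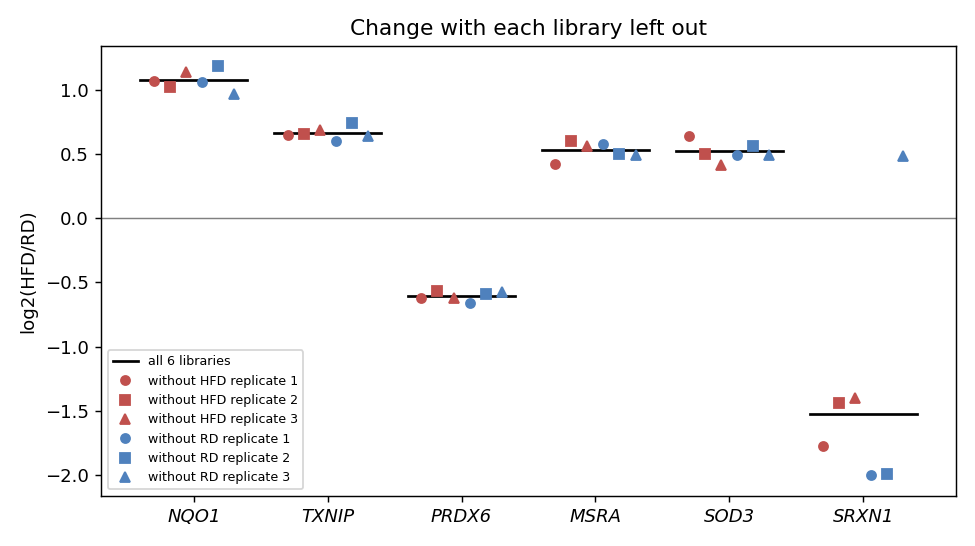
Log2(HFD/RD) of the called members and SRXN1 with all 6 libraries (black line) and with each library left out (red without an HFD library, blue without an RD library). The 5 called members keep their direction, and SRXN1 moves to 0.48 without RD replicate 3.

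None of the 5 glutathione peroxidase genes was called. GPX3, the secreted plasma enzyme, had 219, 235 and 259 CPM in HFD and 271, 274 and 266 CPM in RD. The groups did not overlap, but the log2 change of -0.19 ± 0.07 was not called (edgeR adjusted p = 0.13). GPX1, the main cytosolic enzyme, averaged 45.3 ± 4.62 CPM in HFD and 45.2 ± 6.79 CPM in RD, and GPX4, which reduces lipid peroxides in membranes, 63.8 ± 5.36 CPM in HFD and 67.8 ± 7.56 CPM in RD (SD, n = 3 each). The intervals of the log2 change were -0.27 to 0.28 for GPX1 and -0.31 to 0.14 for GPX4. GPX7 and GPX8, which reside in the endoplasmic reticulum, were low, at 3.82 and 4.88 CPM in HFD and 3.32 and 3.72 CPM in RD.

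Among the superoxide dismutases SOD3, the extracellular enzyme, was called higher (chromosome 5, 52363791 to 52371418, plus strand). It had 14.0, 17.4 and 19.3 CPM in HFD replicates 1, 2 and 3, against 11.4, 12.6 and 11.4 CPM in RD replicates 1, 2 and 3. The groups did not overlap, although HFD replicate 1 lay close to the RD libraries. The log2 change was 0.52 ± 0.14 with an adjusted p of 0.049, next to the threshold, and the call was lost in 5 of the 6 leave-one-out fits (adjusted p up to 0.20), all but that without HFD replicate 1. SOD3 is made by vessel and connective tissue cells. The 5 endothelial markers summed to 342 to 366 CPM in HFD and 326 to 349 CPM in RD with 0 called, and the 6 mural and fibroblast markers to 541 to 630 CPM in HFD and 669 to 732 CPM in RD with COL1A2 called lower. No marker of either list was at 0, and their part in the result was not tested. The cytosolic enzyme SOD1 had a log2 change of -0.12 and the mitochondrial enzyme SOD2 of 0.07, and neither was called.

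MSRA, which reduces methionine sulfoxide in proteins with electrons from thioredoxin, was called higher (chromosome 14, 64122625 to 64455903, minus strand). It had 19.0, 14.9 and 15.9 CPM in HFD replicates 1, 2 and 3, against 12.4, 11.1 and 10.98 CPM in RD replicates 1, 2 and 3. The HFD libraries were all above the RD libraries. The log2 change was 0.53 ± 0.14 (edgeR adjusted p = 0.039), and the call was lost in 5 of the 6 leave-one-out fits (adjusted p up to 0.13), all but that without RD replicate 1.

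The glutaredoxins, which reduce disulfides between proteins and glutathione, were not called. GLRX had 14.2, 16.2 and 18.4 CPM in HFD and 18.2, 22.8 and 21.3 CPM in RD, with an overlap of 1 library of each group and a log2 change of -0.35. GLRX3 had 35.9, 45.2 and 41.3 CPM in HFD and 45.3, 48.3 and 50.2 CPM in RD. Its groups were apart by a small margin, and the log2 change was -0.23 ± 0.10 (edgeR adjusted p = 0.17). GLRX2, known as the mitochondrial enzyme, had a log2 change of -0.11.

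The 6 glutathione transferases, which join glutathione to electrophiles, overlapped between the groups without exception and had log2 changes from -0.14 for GSTO1 to 0.18 for MGST3. GSTP1, whose window holds TGANTCAGC, ranged from 32.2 to 39.3 CPM in HFD and from 30.1 to 46.4 CPM in RD. Mouse has near-identical copies of GSTP1, so its reads may be split. The pentose phosphate enzymes TKT and TALDO1, which regenerate sugar phosphates beside the NADPH-forming steps, had log2 changes of 0.13 and -0.06. Apart from SRXN1, the 36 members without a call had log2 changes between -0.35 and 0.39. The median coefficient of variation of the members within a group was 7.91% in HFD and 8.09% in RD, beside 7.76% in HFD and 10.4% in RD for all tested genes.

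Further genes of the same pathways were read from the same fit in 6 lists. Of 114 distinct genes tested, 13 were called (11.4%), 8 higher and 5 lower in HFD, close to the 10.5% of all genes. The count was 4 without any one of the HFD libraries and 7 without RD replicate 2. The same fits called 701, 490 and 431 of all genes without HFD replicates 1, 2 and 3, and 890 without RD replicate 2. With all libraries 1453 of all genes were called.

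Of 25 further NRF2 targets and partners, 1 rose and 1 fell. SLC7A11, the cystine carrier that supplies cysteine for glutathione and a target of NRF2 and ATF4, had 6.94, 6.32 and 6.89 CPM in HFD and 1.84, 1.95 and 2.72 CPM in RD. All HFD libraries were above all RD libraries, the change was 3.08-fold, and the call held with any library left out (log2 change 1.51 to 1.82). BACH2, a repressor related to BACH1, had 13.0, 11.1 and 12.2 CPM in HFD and 22.8, 26.6 and 65.7 CPM in RD. RD replicate 3 was again the highest, the log2 change was -1.67 with it and -1.04 without it, and the call was lost without any one of the HFD libraries (adjusted p up to 0.084). The ferritin gene FTH1 (log2 change 0.04), SQSTM1 (0.03), ME1 (0.00, or 0.0022) and PGD (-0.18) were not called. OSGIN1 came nearest to a call, at 2.70 CPM in HFD and 5.06 CPM in RD (log2 change -0.90, edgeR adjusted p = 0.0503). CBR3 (0.80) and MAFG (-0.25) were not called either, and the groups of OSGIN1, CBR3 and MAFG did not overlap. DESeq2 called 3 genes of this list and limma-voom 2.

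**Figure D4:**
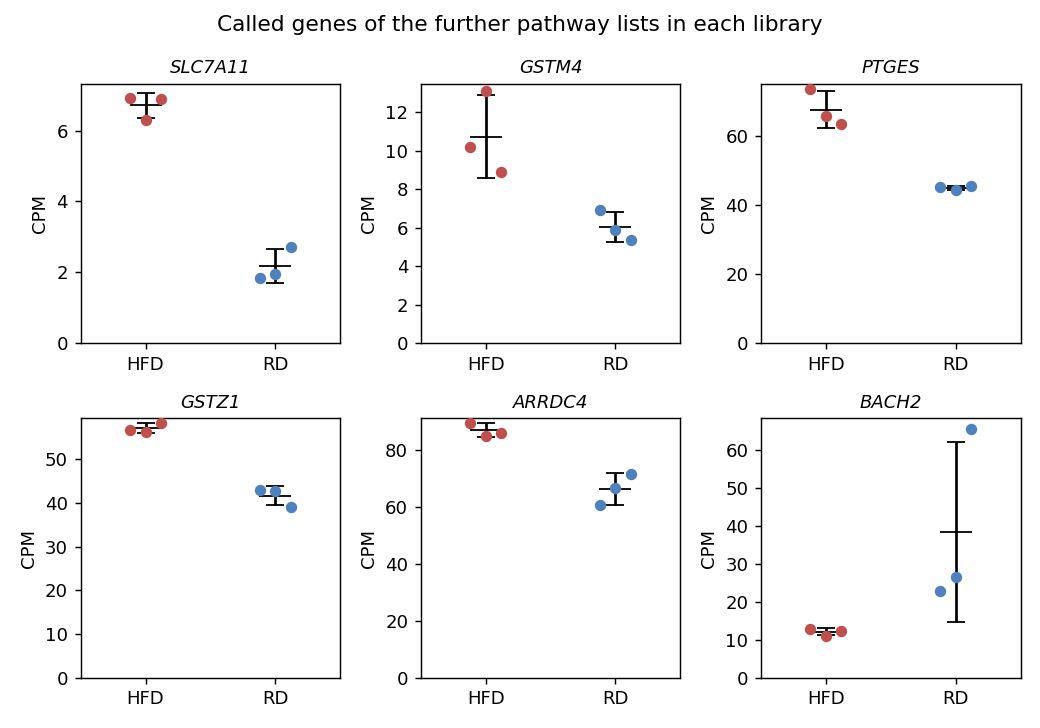
Level in CPM of 6 called genes of the further lists in each of 3 HFD (red) and 3 RD (blue) libraries, with the mean and SD in black. SLC7A11 lies between 6.32 and 6.94 CPM in HFD and between 1.84 and 2.72 CPM in RD, and BACH2 has its highest value, 65.7 CPM, in RD replicate 3.

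Of 25 further genes of glutathione metabolism, 3 rose and 1 fell. PTGES, a glutathione-dependent prostaglandin E synthase, had 73.9, 66.0 and 63.5 CPM in HFD and 45.3, 44.5 and 45.6 CPM in RD (log2 change 0.59 ± 0.08). GSTZ1, which isomerises maleylacetoacetate in tyrosine breakdown, had 56.8, 56.3 and 58.4 CPM in HFD and 43.1, 42.8 and 39.1 CPM in RD (log2 change 0.46 ± 0.08). Both calls held with any library left out. GSTM4 rose 1.78-fold, but the call was lost without HFD replicate 1, HFD replicate 2 or RD replicate 2 (adjusted p up to 0.11), and genes of its cluster are alike in sequence. LAP3, an aminopeptidase that can split the dipeptide from glutathione breakdown, fell (log2 change -0.32 ± 0.09), a call lost with any library left out.

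Of 21 further thioredoxin-like, peroxide and methionine sulfoxide genes, 1 was called. ARRDC4, the closest relative of TXNIP among the arrestin-like proteins and like it known for induction by glucose, had 89.8, 85.1 and 86.3 CPM in HFD and 60.7, 66.7 and 71.9 CPM in RD. All HFD libraries were above all RD libraries. The log2 change was 0.39 ± 0.08 (edgeR adjusted p = 0.018). The call was lost in 4 of the 6 leave-one-out fits (up to 0.073), namely without any one of the HFD libraries or without RD replicate 2. Over the 6 fits the log2 change of ARRDC4 ranged from 0.32 to 0.45. Its RefSeq window held no pair of CACGAG boxes with that spacing, 1 CACGTG box (a motif in 7.15% of all windows) and 1 match of TGACNNNGC. CAT, which encodes catalase, was not called (log2 change 0.22).

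Of 17 genes of selenoprotein synthesis and other selenoproteins, 2 rose and 2 fell. SELENOI, which makes phosphatidylethanolamine, averaged 71.3 CPM in HFD and 95.9 CPM in RD (log2 change -0.43 ± 0.08), and SELENOS of the endoplasmic reticulum fell too (-0.42 ± 0.10). SELENOM rose by 0.34 and SELENOW by 0.26. None of the 4 calls held in every leave-one-out fit, and SELENOI lost its call without HFD replicate 3 alone (adjusted p = 0.055). Of 16 genes of NADPH supply, 0 were called by edgeR, DESeq2 or limma-voom, and 2 had an unadjusted p under 0.05, RPE and ALDH1L2, with log2 changes of -0.27 and -0.37. Of 12 sources of superoxide and peroxide, CYBB, the catalytic subunit of the phagocyte NADPH oxidase, rose 1.57-fold, to 10.8 CPM in HFD, against 6.91 CPM in RD. XDH, xanthine dehydrogenase, fell to 41.9 CPM in HFD, against 56.4 CPM in RD. The 6 macrophage markers summed to 68 to 80 CPM in HFD and 63.4 to 80.7 CPM in RD with 0 called and none at 0, and their part in the level of CYBB was not tested. The call of CYBB held only without RD replicate 2 among the leave-one-out fits (otherwise up to 0.11), and that of XDH was lost without any one of the HFD libraries or without RD replicate 2 (up to 0.13). Over these fits the log2 change ranged from 0.56 to 0.73 for CYBB and from -0.53 to -0.36 for XDH.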

How the data were processed

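The authors deposited whole-number read counts per gene symbol, with no normalization, for 6 libraries of polyadenylated RNA. The genome build was mm10, per the submitters' processing notes; aligner, counter and annotation: not given in the sources used here. Symbols are upper case in human style, and totals are those of the listed rows. From 64.0% to 67.0% of counts between 1 and 10 were even, so both mates of a pair may have been counted, and no counting intervals are given.

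The test was edgeR 4.0.16's quasi-likelihood test under R 4.3.3 (TMM, filterByExpr with minimum count 10 and minimum total 15, an intercept and diet, two-sided, adjusted over all tested rows, threshold 0.05). The SE is the absolute log2 change over the root of F. Intervals are 95% t intervals. The procedure was also run on counts simulated from the dispersions fitted to these data, and no result here rests on that run. No 2 replicates agreed within sampling noise (chi-square per degree of freedom 4.40 to 20.3).

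The members and lists were chosen with earlier results of these data known. Values in every library are given for called members, for members whose groups do not overlap with an unadjusted p under 0.05, and for the regulators and main NRF2 targets; up to 5 called genes of each further list are named. Other genes named were chosen after their values were seen. Symbols that stood on 2 rows (43) were kept out of the lists. Positions and exon lengths are from GENCODE M21 (GRCm38). Alternatives were other scalings, filters and thresholds, DESeq2 1.42.0, limma-voom (limma 3.58.1), halved counts, a replicate block, each library left out, and, chosen after seeing the data, removal of the row of SRXN1. The deposited count of SRXN1 in RD replicate 3 was kept as it stands.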

Additional observations from a re-analysis of the deposited data

How the results depend on the processing

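Among 670 values of single members under the alternatives, 654 stayed on their side of the threshold and 16 lost a call. MSRA lost its call in 6 of 16 alternatives and SOD3 in 10 of 16, and no called member changed direction. Most of the 670 values belong to members that were not called, and 40 of these had a changed sign. The alternatives without a call of SOD3 included DESeq2 size factors in edgeR, no filter, halved counts and limma-voom (adjusted p = 0.051, 0.0501, 0.052 and 0.059). Without single libraries, 431 to 1523 genes, 3 to 4 members (2 to 3 higher, 1 lower) and 4 to 13 further pathway genes were called. For all genes, leaving out HFD replicate 1 gave 701 calls, HFD replicate 2 gave 490, HFD replicate 3 gave 431 and RD replicate 2 gave 890. At a threshold of 0.01 these were 412 genes, 3 members (2 higher) and 4 further genes, and at 0.1 they were 2343 genes and 22 further genes. Scaled by library size alone, calls were higher in HFD in 72.5% of cases, where TMM gave 56.0%. Replicate numbers showed no sign of pairing the libraries (correlations of deviations -0.13, 0.0037 and -0.097 for numbers 1, 2 and 3). With 3 libraries per group this cannot exclude a pairing. The fit with a replicate block called 808 genes, 3 members (2 higher) and 7 further genes. Removal of the SRXN1 row left the members called at 5. With halved counts 4 members were called. At these totals 3 counts were 0.17 to 0.21 CPM.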
